A study of Mus musculus with 14 samples.

Results

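The DNA methylation and demethylation genes followed here were 10 of the 24054 genes in every deposited table, taken by name: Dnmt1, Dnmt3a, Dnmt3b, Dnmt3l, Uhrf1, Tet1, Tet2, Tet3, Tdg and Zfp57. Their level, in TPM (transcript abundance scaled for transcript length and library size), was read in 14 mouse embryonic stem cell (ESC) derived RNA-seq libraries in 6 groups, and all 10 passed the filter on low counts in each comparison. The study asked what the transcription factor Foxa2 does when ESCs become endoderm and when it is forced on in ESCs.

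In 4 groups the cells carried the Foxa2-Venus-KO allele, in which a Venus reporter replaces the Foxa2 coding region and is driven by the Foxa2 promoter. Control cells (d0con, n = 2; d3con, n = 3) were Foxa2-Venus-KO/+ and so had 1 working Foxa2 copy. Knockout cells (d0ko, n = 2; d3ko, n = 3) were Foxa2-Venus-KO/Foxa2-Venus-KO. Day 0 cells were collected from feeder fibroblasts in ESC medium without LIF and sorted as Cherry-negative, which removes the red fluorescent feeders. Day 3 cells had been differentiated on Wnt3a-producing feeder cells with 12 ng/ml Activin A and were sorted as Venus-positive, so both genotypes were gated on Foxa2 promoter activity. In each genotype replicates 1 and 3 came from a single clone and replicate 2 from another. The remaining pair of groups came from TetON-Foxa2-Venus ESCs with a doxycycline-driven lentiviral transgene, derived from Sox17-Cherry cells and grown on gelatin in LIF and serum. They are called the doxycycline line below. The paper names 2 transduced cell lines for this induction, and the sample titles do not give the line of each library. After 48 h in 40 ng/ml doxycycline these cells were sorted at day 2 into Venus-negative (d2-FVFn, n = 2) and Venus-positive (d2-FVFp, n = 2) fractions, so both fractions had received the drug.

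Methylation of cytosine in CpG dinucleotides is written by Dnmt3a and Dnmt3b, which act on unmethylated DNA, with Dnmt3l as a partner that has no catalytic activity of its own. Dnmt1 copies the mark onto the new strand after replication, and Uhrf1 brings it to hemimethylated sites. The Tet enzymes oxidise methylcytosine, and Tdg, a DNA glycosylase, removes the most oxidised forms so that base excision repair can put back plain cytosine. Zfp57 is a zinc finger protein that binds methylated imprinting control regions and recruits Trim28 to keep their methylation. In mouse ESCs Dnmt3l, Tet1 and Tet2 are known as genes of the undifferentiated state.

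Library totals ran from 14142788 to 27278237 expected counts. Foxa2 itself stood between 34.8 and 58.6 TPM in d3con, at 0.19 TPM or less in d3ko, at 0.14 TPM or less in the day 0 libraries, at 2.01 and 2.99 TPM in d2-FVFn, and at 159.8 and 169 TPM in d2-FVFp, so no day 3 or day 2 library went against its label, while at day 0 Foxa2 was too low to tell the genotypes apart. The summed TPM of 6 pluripotency markers (Pou5f1, Nanog, Sox2, Klf4, Zfp42, Dppa5a) was 13787 to 15663 at day 0 and 562 to 985 in d3con. In d3ko it was 15431, 2668 and 17364 in replicates 1, 2 and 3. In this sum the only day 3 library of the second knockout clone stood apart from the other d3ko libraries. Most of the d3ko sums was Dppa5a, at 14200, 1866.5 and 15543 TPM. Pou5f1 (522.5, 500.9 and 944 TPM) and Nanog (254, 240 and 345 TPM) were close in replicates 1 and 2. Sox2, Klf4 and Zfp42 were lower in replicate 2, as Dppa5a was. In d3con replicate 2 Pou5f1 and Nanog stood at 319 and 246 TPM, against at most 63.5 and 42.5 TPM in the other d3con libraries. The summed TPM of 6 endoderm markers (Sox17, Cer1, Hhex, Hnf4a, Dkk1, Gata4) was 6.87 or less at day 0, 760.2 to 1278 in d3con, 29.0 to 141 in d3ko and 18.7 or less in the doxycycline line. None of the 6 pluripotency markers was at 0 in any day 3 library. The 6 mesoderm markers (T, Mesp1, Hand1, Hand2, Tbx5, Noto) summed to 4.88 TPM or less outside day 3, to 20.6, 169 and 36.3 in d3con and to 29.1, 309 and 67.6 in d3ko, highest in replicate 2 of either genotype. Most of the replicate 2 sums was T, at 131 TPM in d3con and 212 TPM in d3ko. Hand2 and Tbx5 in d3con, and Tbx5 and Noto in d3ko, were not highest in replicate 2. The 8 feeder fibroblast markers (Col1a1, Col1a2, Col3a1, Dcn, Lum, Postn, Thy1, Pdgfrb) summed to 12.5 and 15.0 TPM in d0con, 38.3 and 137 in d0ko, 60.2 to 308 in d3con, 136 to 371 in d3ko and 4.07 or less in the doxycycline line. Their part in the results below was not tested.

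The promoters of the Dnmt3 genes are shown first because their products make up the de novo methylation complex and because their own CpG content differs. RefSeq windows (build GRCm38.p6) matched all 10 genes, with 19 annotated starts, and the 250 bases before a start were read in the direction of transcription, with each CpG in capitals. Dnmt3a has 3 windows. The furthest upstream, chr12:3806730-3806979 on the plus strand, and the internal one before the short transcript, chr12:3891494-3891743 on the plus strand, are printed, and the other overlaps the former. The single Dnmt3b window is chr2:153649199-153649448 on the plus strand. Of 3 Dnmt3l windows the middle one, chr10:78049592-78049841 on the plus strand, is printed. It ends just before the transcript of 1676 bases, and it was chosen after seeing that the average length estimated for the gene was 1638 to 1672 bases.
Dnmt3a, upstream start: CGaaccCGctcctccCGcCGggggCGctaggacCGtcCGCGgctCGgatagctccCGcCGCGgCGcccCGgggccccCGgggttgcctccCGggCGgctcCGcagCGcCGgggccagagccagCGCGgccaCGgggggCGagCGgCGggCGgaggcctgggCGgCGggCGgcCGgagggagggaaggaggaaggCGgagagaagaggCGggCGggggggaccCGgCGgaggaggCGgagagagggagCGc
Dnmt3a, internal start: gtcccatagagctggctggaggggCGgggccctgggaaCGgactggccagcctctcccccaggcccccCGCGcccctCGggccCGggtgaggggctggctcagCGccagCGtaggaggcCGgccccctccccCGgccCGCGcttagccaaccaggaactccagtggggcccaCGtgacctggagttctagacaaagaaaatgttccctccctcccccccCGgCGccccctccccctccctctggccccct
Dnmt3b: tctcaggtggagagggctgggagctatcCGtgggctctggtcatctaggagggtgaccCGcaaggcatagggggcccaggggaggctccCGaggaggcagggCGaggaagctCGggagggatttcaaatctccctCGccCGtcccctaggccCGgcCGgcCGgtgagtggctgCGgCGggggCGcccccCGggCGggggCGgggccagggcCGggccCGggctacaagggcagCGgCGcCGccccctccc
Dnmt3l: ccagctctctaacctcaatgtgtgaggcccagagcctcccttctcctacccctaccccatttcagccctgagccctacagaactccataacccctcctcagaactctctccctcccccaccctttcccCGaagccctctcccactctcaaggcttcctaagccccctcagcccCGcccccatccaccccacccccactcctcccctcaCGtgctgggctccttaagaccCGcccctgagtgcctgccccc
The 3 Dnmt3a windows held 38, 40 and 15 CpGs from upstream to internal, the Dnmt3b window 21, and the 3 Dnmt3l windows 5, 4 and 3. Over the 32851 such windows in the table the median was 6, with quartiles of 2 and 16. Across the 19 windows of the 10 genes, 4 sequences were searched on both strands: TGTTTAC and TGTTTGC, which Foxa proteins are known to bind, the octamer ATGCAAAT of Oct proteins and the Esrrb sequence TCAAGGTCA. The only match was TGTTTGC in the window of the furthest upstream Dnmt1 start (chr9:20959889-20960138, minus strand), beginning 162 bases before the start. These sequences occur in 3.17%, 4.3%, 1.6% and 0.387% of all windows, in that order.

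Among the de novo genes, Dnmt3l (chromosome 10, 78042287 to 78063622 in GRCm38.p6, as for the positions that follow) was the most abundant of the 10 genes at day 0 and one of the 3 least abundant in d3con. It stood at 752 and 691 TPM in d0con, at 732 and 685 TPM in d0ko, and at 9.35, 6.16 and 4.98 TPM in d3con. In d3ko it was 208, 49.5 and 270.4 TPM. Every d3ko library lay above every d3con library and below every day 0 library, and replicate 2 was the lowest of the knockout libraries. On the log2 scale of edgeR's quasi-likelihood test, Dnmt3l fell by 6.92 from d0con to d3con (SE 0.67, adjusted p = 0.000213) and by 2.17 from d0ko to d3ko (SE 0.56, adjusted p = 0.0188). It was 4.68 higher in d3ko than in d3con (SE 0.60, adjusted p = 0.00726). In sorted bulk samples, fewer cells that express a gene and less RNA of it per cell cannot be told apart.

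Dnmt3b (chromosome 2, 153649411 to 153687730), the main de novo methyltransferase of the early embryo, stood higher in d3con and lower in d3ko than at day 0. Its level was 190.2 and 247 TPM in d0con and 364, 343 and 400.4 TPM in d3con. In the knockout it was 204 and 201 TPM at day 0 and 43.6, 125 and 80.3 TPM at day 3. The d3con libraries were thus the highest and the d3ko libraries the lowest of the 10 in this system, with no overlap. The knockout decrease passed the test (log2 change -1.47, SE 0.33, adjusted p = 0.0111), as did the difference between the genotypes at day 3 (log2 -2.17, SE 0.31, adjusted p = 0.00985). The control difference between days was 0.55 (SE 0.34, adjusted p = 0.193). It had the same sign in all 3 d3con libraries but was not called.

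Dnmt3a (chromosome 12, 3801559 to 3914443) was the least abundant of the Dnmt3 genes at day 0, at 27.8 and 15.4 TPM in d0con and 29.0 and 24.7 TPM in d0ko. At day 3 it was 6.03, 17.01 and 7.13 TPM in d3con and 11.8, 22.9 and 17.6 TPM in d3ko. In both genotypes the replicate 2 library was the highest at day 3, and d3con replicate 2 lay within the range of d0con. Dnmt3a fell by 1.26 from d0con to d3con (SE 0.43, adjusted p = 0.0329), and the call held with the clone as a block (log2 -1.34, adjusted p = 0.0355). The call was lost in 10 of the 17 alternatives. Among them were the replicate number as a block (adjusted p = 0.0579) and the fit of only the d0con and d3con libraries (adjusted p = 0.0521). Another summed replicates 1 and 3, which share a clone (log2 -1.01, adjusted p = 0.104). The 10 also include the fits without d0con replicate 1 (log2 -0.79), d3con replicate 1 (-0.99) or d3con replicate 3 (-1.05). In the knockout the change was -0.75 (SE 0.42, adjusted p = 0.206).

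**Figure D1:**
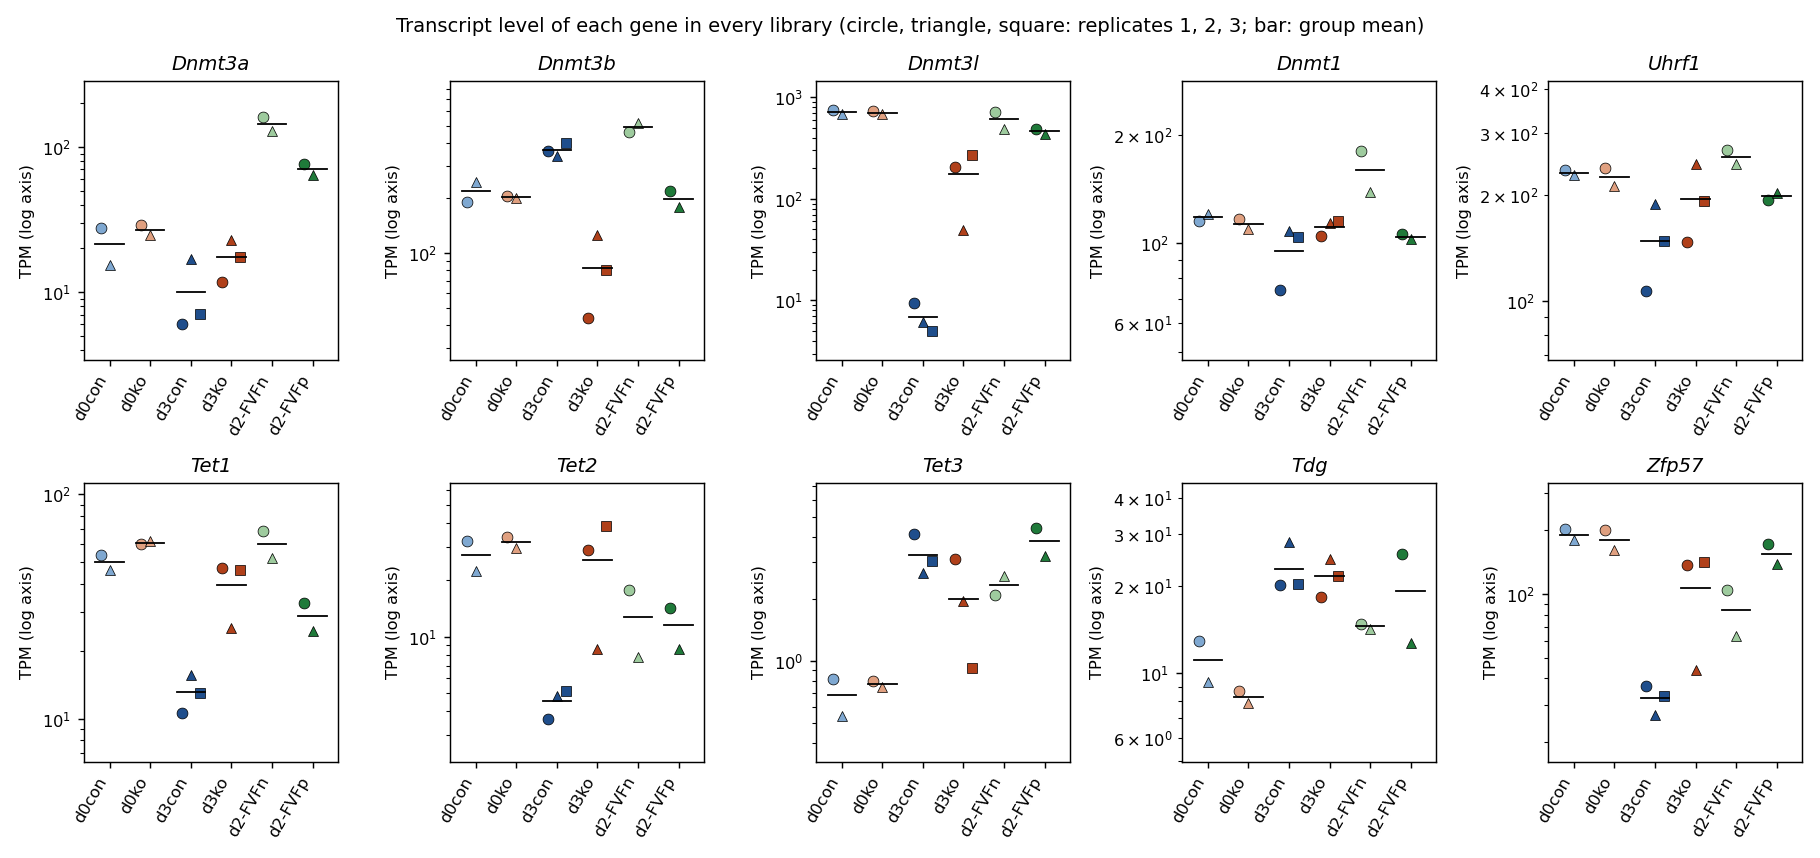
Each panel plots the TPM of a gene on a log axis in all 14 libraries, grouped along the horizontal axis, with circles, triangles and squares for replicates 1, 2 and 3 and a bar at the group mean. Dnmt3l, Tet1, Tet2 and Zfp57 are lowest in d3con and, in d3ko, lower in replicate 2 than in replicates 1 and 3, whereas among the day 0 and day 3 groups Dnmt3b is highest in d3con and lowest in d3ko.

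The makeup of the Dnmt3 family differed between the groups. Dnmt3l held 72.5% to 77.5% of the family's summed TPM in the 4 day 0 libraries, and Dnmt3b 19.6% to 25.9%. In d3con Dnmt3b held 95.9%, 93.7% and 97.1%, and Dnmt3l at most 2.46%. In d3ko the replicate 1 and 3 libraries kept a day 0-like split, with Dnmt3l at 79.0% and 73.4%, while in replicate 2 Dnmt3l held 25.1% and Dnmt3b 63.3%. The summed TPM of the family was 911 to 970.0 at day 0, 366 to 412 in d3con and 197 to 368 in d3ko. These shares are descriptions and were not tested.

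**Figure D2:**
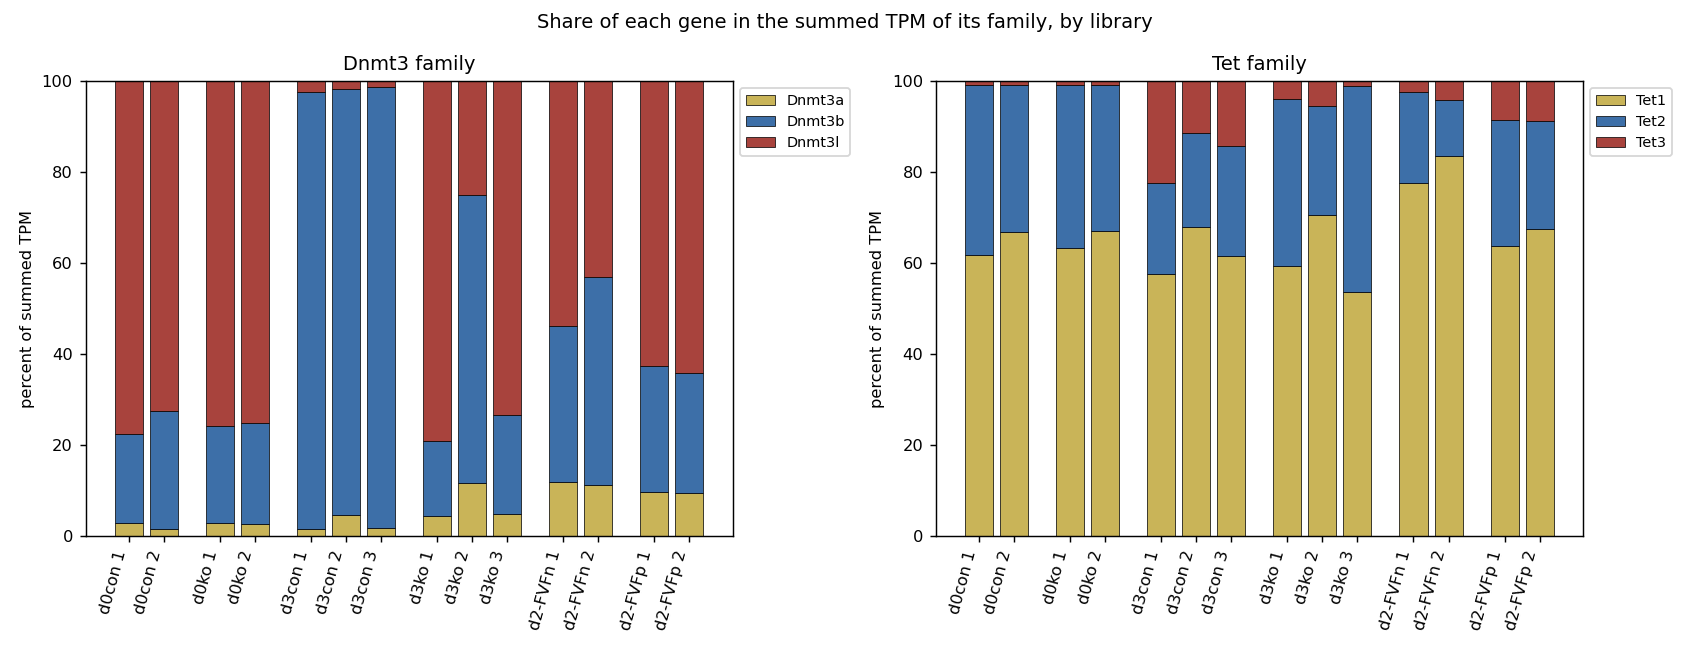
Stacked bars give, for every library, the percent of the summed TPM of the Dnmt3 family (left) and of the Tet family (right) held by each gene. Dnmt3b holds 93.7% or more of the Dnmt3 sum in d3con, and Tet3 holds 11.4% to 22.4% of the Tet sum there against 0.947% or less at day 0.

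Neither maintenance gene was called between days. Dnmt1 (chromosome 9, 20907206 to 20959888) stood at 116 and 121 TPM in d0con, 117 and 109.8 TPM in d0ko, 74.3, 108 and 104 TPM in d3con and 105, 114 and 115 TPM in d3ko. Uhrf1 (chromosome 17, 56303337 to 56323486) stood at 235 and 228 TPM in d0con, 239 and 212 TPM in d0ko, 106, 189 and 148 TPM in d3con and 147, 244 and 192 TPM in d3ko. All d3con libraries lay below both d0con libraries for either gene, whereas in the knockout the days overlapped. The control differences had adjusted p of 0.0114 for Dnmt1 (log2 -0.52, SE 0.14) and 0.0122 for Uhrf1 (log2 -0.86, SE 0.23), both short of the 2-fold change that a call required. Without d3con replicate 2, the highest of its group, the Uhrf1 difference was -1.06 with adjusted p = 0.00569. In d3con Uhrf1 and Dnmt1 came next after Dnmt3b in the order of mean TPM of the 10 genes, and their ranges overlapped each other.

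Of the oxidising enzymes, Tet1 and Tet2 fell in the control cells and Tet3 rose. Tet1 (chromosome 10, 62804570 to 62887469) was at 53.5 and 46.0 TPM in d0con, 59.9 and 62.0 TPM in d0ko, 10.6, 15.7 and 13.01 TPM in d3con and 46.9, 25.2 and 46.2 TPM in d3ko. Tet2 (chromosome 3, 133463677 to 133545136) was at 32.2 and 22.2 TPM in d0con, 33.9 and 29.6 TPM in d0ko, 3.64, 4.8 and 5.12 TPM in d3con and 28.9, 8.57 and 39.0 TPM in d3ko. For both genes every d3con library lay below all other day 0 and day 3 libraries, and d3ko replicate 2 was the lowest of its group. Tet1 fell by 2.13 on the log2 scale from d0con to d3con (SE 0.26, adjusted p = 0.000416) and Tet2 by 2.80 (SE 0.49, adjusted p = 0.00185). Tet1 was 1.60 higher in d3ko than in d3con (SE 0.24, adjusted p = 0.0107) and Tet2 2.51 higher (SE 0.46, adjusted p = 0.0151). From d0ko to d3ko neither was called, with -0.79 for Tet1 (SE 0.26, adjusted p = 0.0468) and -0.47 for Tet2 (SE 0.48, adjusted p = 0.479).

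Tet3 (chromosome 6, 83362373 to 83457208) was the rarest of the 10 genes in all 6 groups, at 0.82 and 0.54 TPM in d0con, 0.80 and 0.75 TPM in d0ko, 4.11, 2.65 and 3.04 TPM in d3con and 3.12, 1.95 and 0.92 TPM in d3ko. The day 0 values rest on 61 to 125 expected counts a library. Both genotypes were higher at day 3 than at day 0 in every library. In the control Tet3 rose by 2.08 (SE 0.51, adjusted p = 0.00858), a call that was lost without d0con replicate 2 (log2 1.81, adjusted p = 0.0758). In the knockout the difference was 1.21 (SE 0.49, adjusted p = 0.0909). It was called by DESeq2 (log2 1.20, adjusted p = 0.0468) and with the replicate block (log2 1.31, adjusted p = 0.0334). It was also called with replicates 1 and 3 summed (log2 1.10, adjusted p = 0.0357) and without d3ko replicate 3 (log2 1.55, adjusted p = 0.0158), but not with the clone block (adjusted p = 0.115). Tet1 held 53.7% to 70.6% of the summed Tet TPM in each day 0 and day 3 library, so the sum fell from 68.8 and 86.6 TPM in d0con to between 18.3 and 23.2 TPM in d3con without a change in which gene led it.

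Tdg (chromosome 10, 82629814 to 82650799), which acts downstream of the Tet enzymes, was at 12.9 and 9.36 TPM in d0con and 8.67 and 7.93 TPM in d0ko. At day 3 it was 20.1, 28.2 and 20.2 TPM in d3con and 18.3, 24.7 and 21.5 TPM in d3ko. All 6 day 3 libraries lay above all 4 day 0 libraries, and the genotypes overlapped at day 3. Tdg rose in the knockout (log2 1.20, SE 0.22, adjusted p = 0.00571). In the control its difference had adjusted p = 0.012 at 0.83 (SE 0.22), short of the 2-fold change, and without d0con replicate 1 it was 1.08 with adjusted p = 0.025. Pseudogene copies of Tdg exist, and reads shared with them could have been divided between genes when the authors estimated the counts.

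Zfp57 (chromosome 17, 37001163 to 37010729), the imprint-protecting zinc finger gene, was at 201 and 179 TPM in d0con, 199 and 162 TPM in d0ko, 37.0, 26.9 and 33.2 TPM in d3con and 137, 44.0 and 141 TPM in d3ko. Its d3con libraries were the lowest, and d3ko replicate 2 lay nearer to them than to the other knockout libraries. It fell by 2.59 from d0con to d3con (SE 0.43, adjusted p = 0.00142) and was 1.70 higher in d3ko than in d3con (SE 0.40, adjusted p = 0.0279). From d0ko to d3ko the difference was -0.81 (SE 0.42, adjusted p = 0.172), and with the clone as a block it was -1.21 and called (adjusted p = 0.0228). It was not called with the replicate block (log2 -1.08, adjusted p = 0.0655) or with replicates 1 and 3 summed (log2 -1.04, adjusted p = 0.151).

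**Figure D3:**
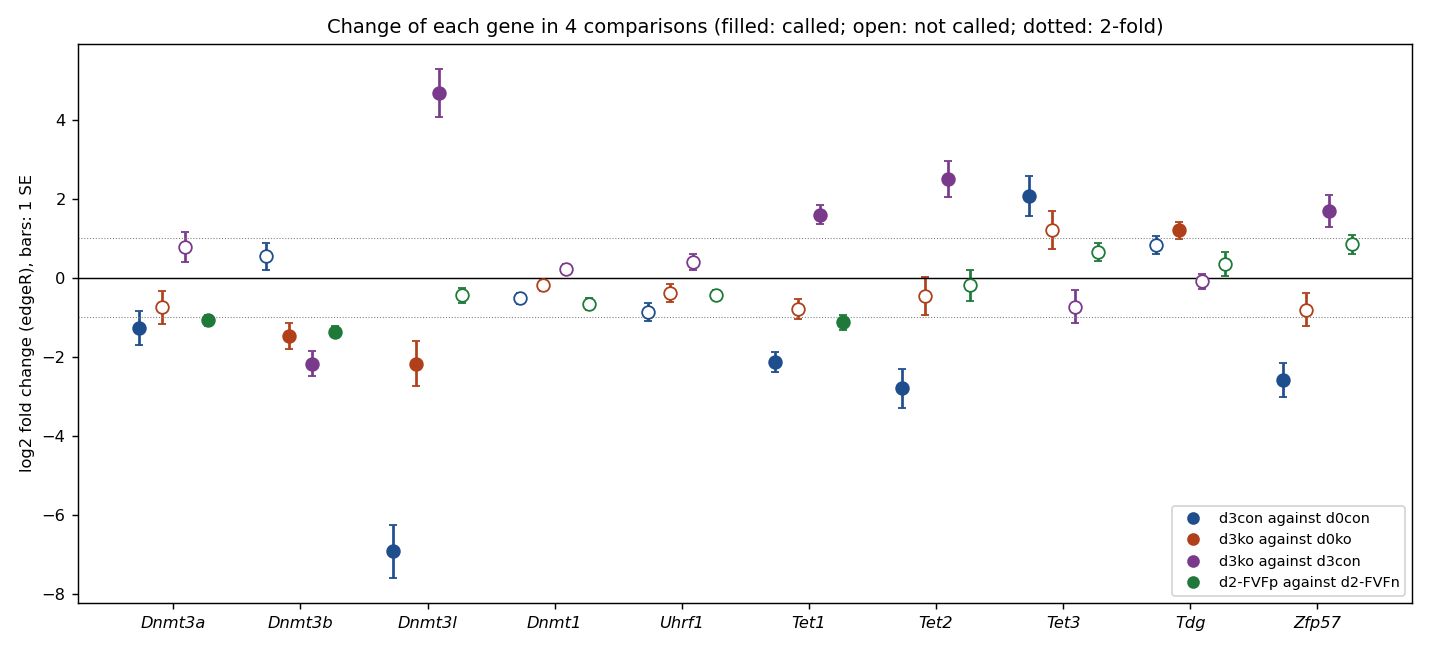
The vertical axis gives the log2 fold change of each gene from edgeR with bars of 1 SE, in colour for 4 comparisons, and filled points mark calls. Dnmt3l has the largest change of the 10 genes, -6.92 in d3con against d0con, and Dnmt3b is the only gene called lower in d3ko than in d3con.

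Counted together, 6 of the 10 genes were called from d0con to d3con, where 35.2% of the 13899 genes tested were: 1 higher (20.6% of all genes) and 5 lower (14.6%). Their median log2 change was -1.06 beside 0.07 over all genes. From d0ko to d3ko 3 were called (17.3% of all genes), 1 higher (11.6%) and 2 lower (5.72%), with a median of -0.61 beside 0.07. Without d3ko replicate 2 those 3 genes were still called, at -1.87 for Dnmt3b, -1.72 for Dnmt3l and 1.11 for Tdg. The d3ko libraries left in that fit share a clone. The 3 calls were lost, leaving 0, without d0ko replicate 1 or without d0ko replicate 2. The TPM of the groups did not overlap for 9 genes in the control comparison, where 74.7% of all genes did not overlap, and for 7 genes in the knockout comparison (58.0%). These 2 comparisons share no libraries, but each shares its day 3 libraries with the comparison of genotypes.

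Between the genotypes at day 3, 5 of the 10 genes were called (8.26% of all genes tested), 4 higher in d3ko (4.75%) and Dnmt3b lower (3.51%). The same 5 genes had groups that did not overlap, against 23.8% of all genes. Without d3ko replicate 2, which stood apart in the summed pluripotency markers, the same 5 genes were called. Their differences were 5.13 for Dnmt3l, 2.92 for Tet2, 2.09 for Zfp57, 1.85 for Tet1 and -2.57 for Dnmt3b. In TPM the omitted library was the d3ko library nearest to d3con for each of these genes, so leaving it out widens the differences. The d3ko libraries left in that fit share a clone. The 5 calls depended on the fit. With only the d3con and d3ko libraries in the fit Dnmt3l alone was called, and none was with the 75-base libraries left out. Zfp57 lost its call without any of the d3con libraries and without d3ko replicate 1 or 3 (adjusted p 0.0629 to 0.107). Tet2 lost its call without d3con replicate 1 (0.0697) or 3 (0.0735), and Tet1 without d3con replicate 3 (0.061). Dnmt3a, at 0.78 higher in d3ko (SE 0.39), was called without d3con replicate 2 (log2 1.36, adjusted p = 0.0287). The sign of these 6 differences was the same in each of those fits. The 2 genotypes differed at day 3 in the pluripotency markers as well, with the values given above, and that part in the result was not tested.

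At day 0 none of the 10 genes was called between d0ko and d0con, as for 0% of all genes, and none had an unadjusted p under 0.05 (0 of 10, beside 1.4% of all genes; DESeq2 also called 0 of 10). Their differences ran from -0.46 for Tdg to 0.27 for Dnmt3a with SE of 0.15 to 0.61. Their TPM did not overlap for 2 genes, Tdg and Tet1, where 43.7% of all genes did not overlap. Whether the change over 3 days differed between the genotypes was tested as an interaction of genotype and day, and none of the 10 genes was called (0% of all genes, with edgeR). Foxa2, the deleted gene, was not called in that test either (interaction -7.68, SE 0.87, adjusted p = 0.0544), so the absence of calls says little. An unadjusted p under 0.05 was reached by 5 of the 10 genes and by 13.2% of all genes. The interaction was 4.75 for Dnmt3l (SE 0.85, unadjusted p = 0.000303, adjusted p = 0.129) and -2.02 for Dnmt3b (SE 0.47, unadjusted p = 0.00196, adjusted p = 0.156). It was 1.35 for Tet1 (SE 0.37, adjusted p = 0.195), 2.32 for Tet2 (SE 0.70, adjusted p = 0.222) and 1.78 for Zfp57 (SE 0.61, adjusted p = 0.263). Without d3ko replicate 2, the d3ko library with the lowest summed pluripotency markers, those 5 genes were called, in a fit that called 8.1% of all genes. The interactions were 5.19, -2.42, 1.59, 2.74 and 2.17 in the same order, with adjusted p of 0.000273 to 0.0054. In TPM the omitted library was the d3ko library nearest to d3con for each of these genes, so leaving it out widens the contrast. The d3ko libraries left in that fit share a clone, so these p-values hold no spread between knockout clones at day 3. None of the 10 genes was called with any other single library left out. With replicates 1 and 3 of day 3 summed, none was called either. The interaction was then 4.54 for Dnmt3l (adjusted p = 0.397) and -1.80 for Dnmt3b (adjusted p = 0.431). DESeq2 on all libraries called Dnmt3l, Dnmt3b, Tet1 and Tet2, beside 4.07% of all genes. Replicate 2 is the only day 3 library of its knockout clone, so clone and replicate cannot be told apart.

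The estimated transcript makeup shifted for Dnmt3a and Zfp57. The deposited tables give for each gene a length averaged over its transcripts by their estimated share, which does not depend on the level of the gene. For Dnmt3a it was 9031 and 9136 bases in d0con, 9066 and 9059 in d0ko, 9566, 9360 and 9485 in d3con and 9380, 9268 and 9437 in d3ko. All 6 day 3 libraries lay above all 4 day 0 libraries, which is a larger share of longer transcripts. The 3 Dnmt3a transcripts in the tables have spliced lengths in GENCODE vM21 of 9685 and 8737 bases for those whose annotated starts lie downstream of the upstream window printed above, at positions 3807030 and 3807160, and 5424 bases for the one from the internal promoter. For Zfp57 the averaged length was 2028 and 2047 bases in d0con, 2079 and 2078 in d0ko, 2214, 2262 and 2331 in d3con and 2229, 2153 and 2252 in d3ko, again without overlap between the days. Its annotated transcripts are 1749, 1991 and 2597 bases long, and the longest, listed as non-coding, begins at position 37003666 of chromosome 17, downstream of the other starts. Both genes were at a lower mean level at day 3 in either genotype. Across the 14 libraries, Dnmt1, Dnmt3b, Dnmt3l, Uhrf1 and Tet1 differed by at most 34 bases, and Tet2, Tet3 and Tdg had a fixed length. Single-end reads of 50 or 75 bases limit how well transcripts are told apart, and these averages are estimates given with no test. How often the averaged length separates the days over all genes was not counted, so no such share can be set beside these values.

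**Figure D4:**
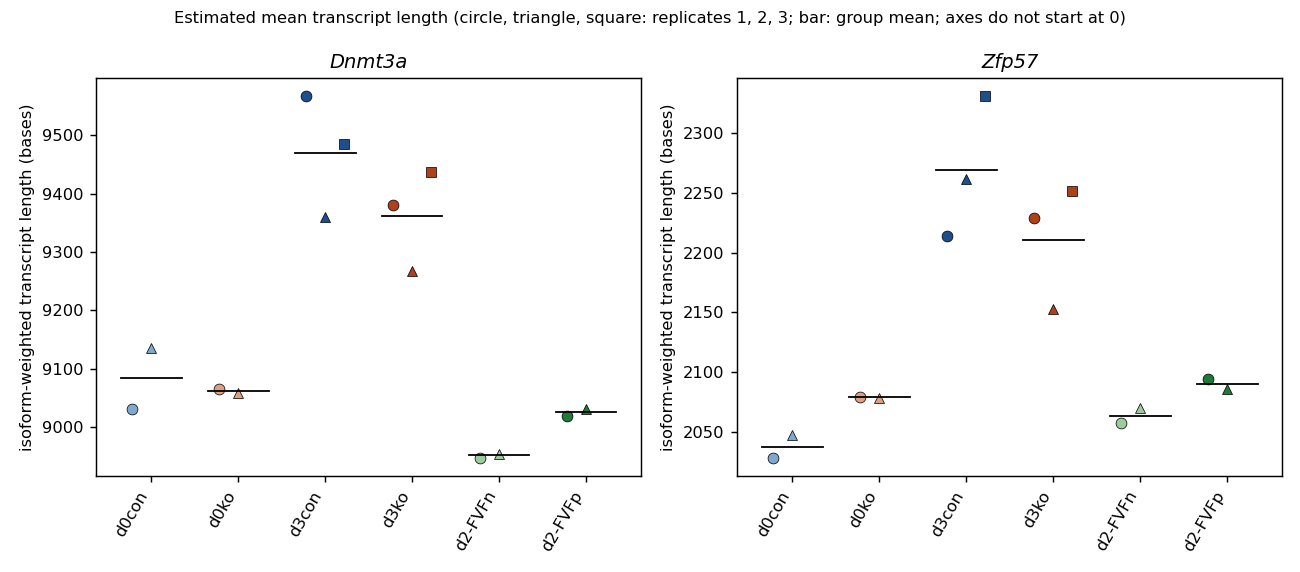
The vertical axes give the transcript length in bases, averaged over isoforms by their estimated share, for Dnmt3a and Zfp57 in each library, with a bar at the group mean. All day 3 points lie above all day 0 points for both genes, and the d2-FVFp points of Dnmt3a (9020 and 9032 bases) lie above the d2-FVFn points (8948 and 8955 bases).

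In the doxycycline line, where Foxa2 was forced on in cells whose pluripotency markers summed to 4232 to 7908 TPM, Dnmt3b, Dnmt3a and Tet1 were lower in the Foxa2-positive fraction. Dnmt3b was at 464 and 519 TPM in d2-FVFn and 218 and 178 TPM in d2-FVFp (log2 -1.36, SE 0.13, adjusted p = 0.00197). Dnmt3a was at 161 and 129 TPM in d2-FVFn and 76.0 and 63.9 TPM in d2-FVFp (log2 -1.08, SE 0.15, adjusted p = 0.00573). Tet1 was at 68.4 and 52.0 TPM in d2-FVFn and 32.9 and 24.5 TPM in d2-FVFp (log2 -1.12, SE 0.19, adjusted p = 0.0111). The fractions did not overlap for these 3 genes. They were the only calls among the 10 genes, all lower, where 1.47% of the 12943 genes tested were called lower, 6.96% higher and 8.43% in either direction. Groups did not overlap for 7 of the 10 genes and for 62.5% of all genes. The calls of Dnmt3a and Tet1 sat close to the 2-fold limit: without d2-FVFn replicate 1 they were -0.89 and -0.88, and without d2-FVFp replicate 2 they were -0.95 and -0.90, and neither was then called.

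The other 7 genes were not called in this line. Dnmt1 was at 180.0 and 139 TPM in d2-FVFn and 106 and 103 TPM in d2-FVFp (log2 -0.66, adjusted p = 0.0256), and Uhrf1 at 269 and 245 TPM against 193 and 203 TPM (log2 -0.43, adjusted p = 0.0436), both short of the 2-fold change. Dnmt3l stayed high in both fractions, at 726 and 489 TPM in d2-FVFn and 493 and 432 TPM in d2-FVFp, and was not called (log2 -0.44, adjusted p = 0.153). Zfp57 was higher in d2-FVFp, at 172 and 138 TPM against 105 and 63.5 TPM, with a difference of 0.85 (adjusted p = 0.0508). It was called without d2-FVFn replicate 1 (log2 1.28, adjusted p = 0.0327) and without d2-FVFp replicate 2 (log2 1.02, adjusted p = 0.0193). Tet2, Tet3 and Tdg differed by -0.19, 0.65 and 0.35, and none was called. In the edgeR fit with the replicate number as a block, Zfp57 was 0.89 higher (adjusted p = 1.85e-08) and Tet3 0.64 higher (adjusted p = 0.00507). Dnmt3l was -0.42 in that fit (adjusted p = 0.00362). These differences were short of the 2-fold change, and Tet2 and Tdg had adjusted p of 0.539 and 0.227. The SE in that fit was 0.12 for Dnmt3a, Dnmt3b and Dnmt3l alike, so its p-values hold little of each gene's own spread. The 10 genes had a median of -0.43 beside 0.01 over all genes.

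Dnmt3a was more abundant in the doxycycline line than in the Foxa2-Venus-KO cells, at 63.9 TPM or more against 29.0 TPM or less. The line, medium and feeders all differ between these groups and cannot be told apart, and the difference was not tested. Dnmt3b was lower in the cells without Foxa2 at day 3 (log2 -2.17) and lower in the fraction with Foxa2 of the doxycycline line (log2 -1.36). Zfp57 was 1.70 higher without Foxa2 at day 3 and 0.85 higher, though not called, with forced Foxa2.

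Other genes, of methylation control and of the naive state, were read from lists drawn up by function with earlier results of these data known. Of 10 regulators known from naive ESCs (Prdm14, Dppa3, Dppa2, Dppa4, Zfp42, Nanog, Esrrb, Tfcp2l1, Klf4, Tcl1), 9 fell and none rose from d0con to d3con, where 14.6% of all genes fell and 20.6% rose, with a list median of -4.86. From d0ko to d3ko 1 fell (5.72% of all genes), and in d3ko against d3con 9 were higher and none lower (4.75% and 3.51% of all genes), with a median of 4.18. Dppa2, a chromatin factor of early embryos and germ cells, fell by 7.19 (SE 0.93, adjusted p = 0.000503) from 128 and 182 TPM to between 1.08 and 1.29 TPM, and was between 4.27 and 65.5 TPM in d3ko. Zfp42, Nanog and Klf4 of this list are also among the pluripotency markers. In the doxycycline line Klf4 alone was called, 1.29 higher in d2-FVFp (adjusted p = 0.0262), where 6.96% of all genes were called higher.

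For the lists that follow, the shares of all genes were 14.6% lower and 20.6% higher from d0con to d3con, 3.51% and 4.75% in d3ko against d3con, and 1.47% and 6.96% in d2-FVFp against d2-FVFn. Of 9 Tet partners and regulators, 3 fell and 2 rose from d0con to d3con. Hmces, which protects abasic sites in DNA, fell by 3.74 (SE 0.42, adjusted p = 0.000314), and Gadd45a, a stress gene linked to demethylation, fell by 2.75 (SE 0.58, adjusted p = 0.00419). Cxxc4, a CpG-binding regulator of Tet2, was called higher (adjusted p = 0.0069) but from 0.02 TPM in both d0con libraries to between 0.81 and 2.30 TPM in d3con. Gadd45a and Hmces were the 2 called in d3ko against d3con, 2.53 and 1.84 higher in the knockout (adjusted p = 0.0224 and 0.019). In the doxycycline line Cxxc5 and Gadd45b were higher in d2-FVFp, by 1.41 (adjusted p = 0.00371) and 1.22 (adjusted p = 0.00912).

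Of 15 silencing partners, 5 fell and 2 rose from d0con to d3con (median -0.46), beside 35.2% of all genes called in either direction. They included Trim28, the corepressor that Zfp57 recruits, which fell by 1.65 (SE 0.16, adjusted p = 0.000219), and Usp7, a deubiquitinase that binds Dnmt1 and Uhrf1, which fell by 2.52 (SE 0.39, adjusted p = 0.00102). Usp7 was the only one called in d3ko against d3con, 1.40 higher in the knockout (adjusted p = 0.0373). Of 8 methyl-CpG readers, 2 rose and none fell from d0con to d3con, a share near the 20.6% of all genes that rose. They were Uhrf2, the paralogue of Uhrf1, by 2.27 (SE 0.22, adjusted p = 0.000211), from 8.89 and 11.3 TPM to between 44.7 and 66.6 TPM, and Zbtb4, from 0.04 and 0.06 TPM to between 0.66 and 1.67 TPM (adjusted p = 0.0014). In d2-FVFp Mbd2 was 1.36 higher (adjusted p = 0.0199).

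Of 12 genes of excision repair, which completes demethylation after Tdg, 2 fell and 1 rose from d0con to d3con, beside 35.2% of all genes called in either direction. The endonuclease gene Apex1 fell by 1.71 (SE 0.24), the glycosylase gene Ung by 1.28 (SE 0.28), and the glycosylase gene Neil3 rose by 2.60 (SE 0.31). None of the 12 was called in d3ko against d3con or in the doxycycline line. Of 11 genes that supply the methyl donor S-adenosylmethionine, 3 fell and 1 rose, a share near that of all genes. Tdh, a threonine dehydrogenase gene of mouse ESCs, fell by 6.11 (SE 0.77) and was 4.54 higher in d3ko than in d3con (SE 0.70, adjusted p = 0.0107), and the synthetase gene Mat2a fell by 2.08 (SE 0.23). Of 12 replication fork genes 2 fell and none rose, near the 14.6% of all genes that fell: Mcm5 fell by 1.28 and Fen1 fell by 1.23. The list median was -0.54, and none was called between the genotypes at day 3 or in the doxycycline line.

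Over the 14 libraries, the genes whose centred log2(TPM + 1) lay closest to Dnmt3l among 9749 genes were Zfp42, Dppa2 and Dppa4, with root mean square differences of 0.46, 0.46 and 0.48 where Dnmt3l itself varied by 2.57. For Tet2 they were Tmem38b, Ppm1j and Susd2 (0.26 to 0.34, where Tet2 varied by 1.04), and for Zfp57 Klf3, Acap1 and Npr1 (0.28 to 0.31). For Dnmt3a the closest was the muscle actinin gene Actn3 (0.34 of 1.33), for Tet1 9630033F20Rik (0.25 of 0.82) and for Tet3 Kif1b (0.18 of 0.60). The libraries share groups and clones, so these are descriptions of likeness in level only.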

How the data were processed

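RNA from sorted cells was made into libraries with SMART-Seq v4 and MicroPlex kits, which do not mark strand. The authors aligned single-end reads to mm10 with STAR and estimated, library by library with RSEM on RefSeq transcripts, the deposited expected counts, TPM and isoform-averaged transcript lengths (versions not stated). Lengths in the files show 75-base reads in replicate 1 of d3con and d3ko and 50-base reads in the rest.

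Here expected counts were rounded and tested with edgeR 4.0.16 (R 4.3.3; TMM scaling, quasi-likelihood), with 1 fit for the 4 groups of days 0 and 3 and another for the doxycycline line. Genes with at least 1 CPM in at least 2 libraries were kept. A call needed a Benjamini-Hochberg adjusted p under 0.05 over all genes tested and an absolute log2 change over 1. The fits were first tested on simulated data. Named genes were the 10 genes, Foxa2, the markers, at most 2 called genes a direction from each of 7 pathway lists in 3 comparisons, and the 3 genes closest to each of the 10 called in d3con. The 10 genes, the lists and the rules were chosen with earlier results of these data known. Alternatives were DESeq2 1.42.0, limma 3.58.1 on log2(TPM + 1), glmTreat, other scaling and filters, blocks, merged or omitted libraries.

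By the clone names of the files, replicates 1 and 2 within a genotype mark the same clones on both days, which pairs day 0 with day 3, and replicate 3 of day 3 is a further sample of the clone of replicate 1. The deviations of such pairs correlated at 0.02 and 0 in control and -0.03 and 0.06 in knockout cells. Replicates of a clone may be technical, so p-values measure the spread between these samples. The fewest counts behind a value were 61 for Tet3 at day 0 and 102 for Dnmt3l in d3con.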

Additional observations from a re-analysis of the deposited data

Results flagged for a closer look

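Dnmt3b stood out because every library of one genotype moved in the opposite direction to every library of the other. All 3 d3con libraries (343 to 400.4 TPM) lay above both d0con libraries (190.2 and 247 TPM), and all 3 d3ko libraries (43.6 to 125 TPM) lay below both d0ko libraries (201 and 204 TPM). The control rise was not called (log2 0.55, adjusted p = 0.193 with edgeR). Groups without overlap were common, at 74.7% of all genes in the control and 58.0% in the knockout comparison. Opposite movement was looked for in the 10 genes only, and its share over all genes was not counted. Tested as an interaction of the genotype with the day, the contrast between these changes was -2.02 (log2, SE 0.47, adjusted p = 0.156 with edgeR over all genes), which missed the threshold. Across the alternatives it ran from -2.49 to -1.70, with adjusted p of 0.00451 to 0.58.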

How the results depend on the processing

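Leaving out each library in turn gave 5 to 7 called genes of the 10 in d3con against d0con. That range was 0 to 4 in d3ko against d0ko, 2 to 5 in d3ko against d3con, 0 to 5 for the interaction (5 without d3ko replicate 2), 0 to 0 in d0ko against d0con, and 2 to 3 in the doxycycline line. Tested against a 2-fold change by glmTreat, 0 genes were called in d3ko against d0ko, 2 in d3ko against d3con and 0 in the doxycycline line. DESeq2 on the 2 groups against a 2-fold change called 0, 1 and 0 in the same order. With only the 2 groups in the fit, 1 gene was called in d3ko against d0ko and 1 in d3ko against d3con. With replicates 1 and 3 summed, or with the 75-base libraries left out, 0 were called in d3ko against d3con. For the interaction DESeq2 called 4, and 5 were called with both replicate 2 libraries of day 3 left out, a choice made after seeing the data. Each genotype then had day 3 libraries of a single clone.

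With the replicate number as a block, 5, 4, 5, 0, 0 and 3 genes were called in d3con against d0con, d3ko against d0ko, d3ko against d3con, d0ko against d0con, the interaction and the doxycycline line. The block ended the call of Dnmt3a in the control and gave one to Tet3 in the knockout, and it changed no other call. The clone block did neither, and it gave a call to Zfp57 in d3ko against d0ko. In that fit replicates 1 and 3 of a clone count as separate samples. Deviations of same-numbered libraries correlated at 0.53, 0.29 and 0 between d3con and d3ko and at 0.23 between the doxycycline fractions. The d3con and d3ko clones differ, and the sources used here give no culture shared between them. The doxycycline fractions were sorted from induced cells, so same-numbered fractions may share a culture or cell line. The main fit did not treat them as pairs. The replicate 1 libraries of day 3 share the 75-base read length. A sign turned only when a library was left out, and only among uncalled differences. These ranges were, in d0ko against d0con, -0.08 to 0.74 for Dnmt3a, -0.33 to 0.06 for Dnmt3b, -0.14 to 0.00 for Dnmt3l, -0.19 to 0.03 for Uhrf1, -0.06 to 0.47 for Tet2, -0.12 to 0.48 for Tet3 and -0.26 to 0.08 for Zfp57. They were -0.20 to 0.07 for Tdg in d3ko against d3con and, in the doxycycline line, -0.65 to 0.54 for Tet2 and -0.23 to 0.80 for Tdg.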
